A study of Mus musculus with 4 samples.

Results

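The genes described here are 7 scavenger receptors of macrophages (*Msr1*, *Marco*, *Cd36*, *Scarb1*, *Cd68*, *Olr1* and *Cxcl16*) and *Cd5l*, which encodes a secreted protein of the same scavenger receptor cysteine-rich (SRCR) domain family as MARCO. They were chosen by name, and all 8 were among the 18364 genes of the expression table. RNA was measured by bulk sequencing in large peritoneal macrophages (LPMs), which reside in the peritoneal cavity, taken from C57BL/6 mice aged 8 weeks. The cells were gated as F4/80+, CD102+ and negative for MHC class II. There were 2 libraries labelled wild type (WT) and 2 labelled Rxra-/-, called Rxra-KO here, and the comparison asks how loss of the nuclear receptor RXRα in myeloid cells changes these transcripts. Per the methods of the study, the mutant mice carried LysM Cre, a recombinase expressed from the *Lyz2* locus in myeloid cells, with Rxra fl/fl alleles. The controls were Rxra fl/fl, so the floxed allele was common to both groups. As Cre was given for the mutants only, its effect and that of RXRα loss cannot be told apart here. The labels do not say whether a library came from 1 mouse or from several. The p-values rest only on the spread between these libraries, pooled mostly over genes of similar signal rather than taken from each gene.

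Scavenger receptors are structurally unrelated membrane proteins grouped by their binding of modified lipoproteins, apoptotic cells and microbial surfaces. Class A receptors (MSR1 and MARCO) are trimers with a collagen-like stalk, class B receptors (CD36 and SR-B1, the product of *Scarb1*) span the membrane at both ends and move lipids, and the others belong to smaller classes. CD5L, also known as AIM, is released by tissue macrophages, protects them from apoptosis and is known as a target of LXR, a nuclear receptor that acts as a partner of RXR.

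Library depth was 652542 and 947372 reads for WT, against 629030 and 1047021 for Rxra-KO, so that each group held 1 shallower and 1 deeper library. *Rxra* itself had 20 and 28 reads in WT, against 33 and 77 where the label was Rxra-KO. Scaled for depth, its signal was 31.0 and 30.9 against 50.4 and 77.0. It was not called (log2 fold change 0.99, limma adjusted *p* = 0.183), so no fall was seen over the whole gene. The table sums reads over a whole gene and does not show whether they fall in the deleted part. Whether *Rxra* was lost thus cannot be read from these values, and all directions below are between libraries as labelled. *Lyz2*, the site of the Cre driver, was lower in the libraries labelled Rxra-KO (log2 fold change -1.03, limma adjusted *p* = 0.00163). This call was lost without WT replicate 1 (log2 fold change -0.88, adjusted *p* = 0.202) and without WT replicate 2 (-1.18, adjusted *p* = 0.0529), while the fold change stayed of similar size. Among 8 LPM markers 7 were called lower, *Gata6*, *Icam2* (the gene of the sorting marker CD102) and *Adgre1* (that of F4/80) among them. *Timd4* was the marker not called. The summed signal of the 8 was 33818 to 35445 in WT against 17121 to 18405 in the libraries labelled Rxra-KO. *Prg4* alone reached 27362 reads in a library, so this sum is weighted heavily towards that gene. All 7 markers of small peritoneal macrophages (SPMs), the monocyte-derived macrophages of the cavity, were higher, with a summed signal of 105 to 360 against 4324 to 5802. The study itself had named all 7 as higher in these libraries, and the LPM markers *Gata6*, *Icam2* and *Naip1* as lower. The direction of these genes was thus fixed by the choice of markers and is not independent evidence.

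Of the 8 genes, *Marco* and *Cd5l* fell in the libraries labelled Rxra-KO and none rose. Signal is given on the deposited scale, on which 1 read is worth between 0.993 and 1.51 according to the library, and a gene was called at a limma adjusted *p* under 0.05 with a log2 fold change of 0.6 or more in either direction. Of all genes, 2.29% were called, 0.969% lower and 1.32% higher, against 2 of the 8 genes. The median log2 fold change was -0.63 over the 8 genes and 0.02 over all genes. The groups did not overlap for 7 of the 8 genes, against 38.1% of all genes, and both libraries labelled Rxra-KO lay below both WT libraries for 5, against 19.3% of all genes. The 8 genes were chosen with earlier results of these data known, and the study had named *Cd5l* and *Msr1* as lower. These comparisons with all genes are thus not independent evidence. With 2 libraries a group, an exact permutation test of 1 gene cannot go below *p* = 0.333, so the adjusted values depend on the variance that limma pools over genes. That pooled variance carried a weight of 227 degrees of freedom, against 2 from a gene's own libraries. The standard errors thus mostly describe genes of similar signal.

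**Figure D1:**
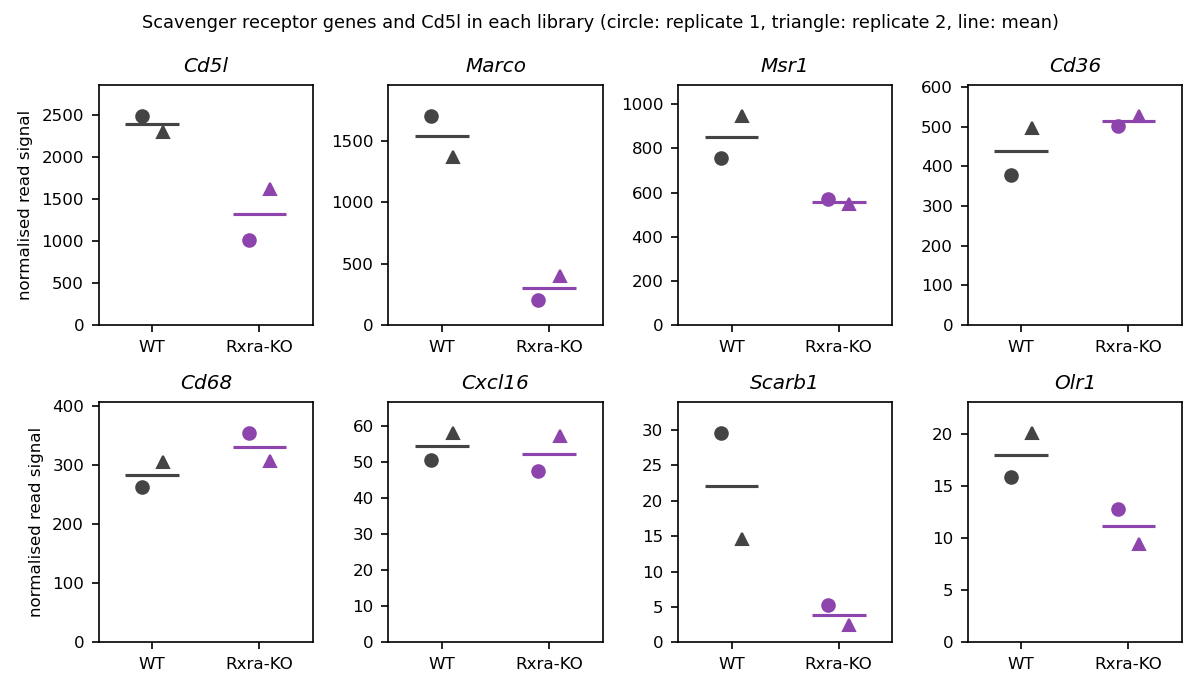
Normalised read signal (vertical axis, starting at 0, with its own range in each panel) of the 8 genes in the 2 WT libraries (grey) and the 2 libraries labelled Rxra-KO (purple), where circles are replicate 1, triangles replicate 2 and lines group means. *Marco* drops from a mean of 1540 to 303 with no overlap, whereas *Cxcl16* overlaps between the groups at 54.4 and 52.3.

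*Marco*, a class A receptor that binds bacteria and inert particles, had the smallest *p* value of the 8 genes. Its signal was 1706 and 1374 in the WT libraries and 207 and 399 in those labelled Rxra-KO. Every library labelled Rxra-KO thus lay far below either WT library, although they differed from each other beyond counting error, with exact Poisson intervals of 173 to 244 and 360 to 439. The mean was 1540 ± 235 in WT and 303 ± 136 in the libraries labelled Rxra-KO (SD, n = 2), and the latter was 19.7% of the former. The log2 fold change was -2.41 (standard error 0.22, limma adjusted *p* = 2.29e-19), and among genes with a negative fold change only 2 had a smaller *p* value. Between the shallower libraries of each group the log2 difference was -3.04 and between the deeper ones it was -1.78. The call held without each library in turn, with log2 fold changes between -2.88 and -1.94, whereas limma run with no variance trend, by which 0 genes of the table were called (1579 at an unadjusted *p* under 0.05), gave an adjusted *p* = 0.453. As these are bulk libraries, fewer cells that express a gene and less RNA per cell cannot be told apart, and whether the shift in LPM and SPM markers plays a part in the fall of *Marco* was not tested.

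*Cd5l* was the most abundant of the 8 transcripts in every library. Its signal was 2487 and 2298 in WT and 1010 and 1623 in the libraries labelled Rxra-KO. The WT libraries lay close together, and both libraries labelled Rxra-KO were below them, replicate 1 the further. The mean went from 2393 ± 133 to 1316 ± 434 (SD, n = 2), which was 55.0% of the WT mean. The log2 fold change was -0.90 (standard error 0.22, limma adjusted *p* = 0.00346). Leaving out WT replicate 1 gave an adjusted *p* = 0.136, and leaving out WT replicate 2 gave 0.0831, so either ended the call. Without Rxra-KO replicate 1 the log2 fold change was -0.56 (adjusted *p* = 0.411), so that the size of the change rests partly on that library. *Marco* was also lower relative to *Cd5l*. The ratio of *Marco* to *Cd5l* signal, which does not depend on scaling, was 0.686 and 0.598 in WT against 0.205 and 0.246.

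Since RXR pairs with other receptors on repeats of a short DNA core, the promoters were read for it. The RefSeq promoter table (GRCm38.p6) held 1 start site each for *Marco*, *Cd5l*, *Cd36*, *Olr1* and *Cd68*. The 250 bases before the start of *Marco* and *Cd5l*, the genes that fell, are shown with those of *Cd36*, a class B receptor gene that was not called. They lie at chr1:120505025-120505274 (minus strand), chr3:87357631-87357880 (plus strand) and chr5:17835897-17836146 (minus strand). Capitals mark the core AGGTCA, its variant GGGTCA, the variant with a central TT, AGTTCA, or the further variant GGTTCA, on either strand.
Marco: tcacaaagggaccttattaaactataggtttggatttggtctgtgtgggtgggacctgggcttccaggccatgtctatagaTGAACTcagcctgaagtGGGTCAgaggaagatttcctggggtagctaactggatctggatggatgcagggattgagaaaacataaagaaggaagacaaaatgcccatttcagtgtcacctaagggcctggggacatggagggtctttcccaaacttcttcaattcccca
Cd5l: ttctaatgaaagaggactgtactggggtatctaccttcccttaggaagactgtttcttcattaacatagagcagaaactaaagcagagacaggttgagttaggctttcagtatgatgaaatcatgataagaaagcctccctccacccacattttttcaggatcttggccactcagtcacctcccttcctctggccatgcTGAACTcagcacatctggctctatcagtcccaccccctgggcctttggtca
Cd36: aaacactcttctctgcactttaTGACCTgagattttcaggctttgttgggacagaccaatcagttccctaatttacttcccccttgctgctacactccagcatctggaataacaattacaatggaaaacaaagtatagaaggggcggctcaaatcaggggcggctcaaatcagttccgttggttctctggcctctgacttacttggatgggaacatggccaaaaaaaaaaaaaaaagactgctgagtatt

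*Marco* had an AGTTCA core on the opposite strand 169 bases and a GGGTCA core 152 bases before the start, counted to the first base of each core. *Cd5l* had 1 core on the opposite strand, AGTTCA, 51 bases before the start, and *Cd36* had 1, AGGTCA, 228 bases before it. *Olr1* had 1 AGGTCA core and *Cd68* had none. Of 32851 mouse promoters of 300 bases (250 before and 50 after the start), 43.7% held at least 1 of these cores and 13.1% at least 2. No member promoter held 2 cores as a direct repeat spaced by 1, 4 or 5 bases, which 0.222%, 0.0822% and 0.0974% of all promoters did. These matches describe the letters of this window and were not tested against the expression data.

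*Msr1*, the class A receptor for acetylated lipoproteins, was not called. Its signal was 758 and 947 in WT and 568 and 547 in the libraries labelled Rxra-KO, so the groups did not overlap and the libraries labelled Rxra-KO were nearly equal. The log2 fold change was -0.60 (standard error 0.22, 95% interval -1.03 to -0.17, limma adjusted *p* = 0.167). With voom weights on the recovered reads it was called at -0.62 (adjusted *p* = 0.0456), but not by edgeR (adjusted *p* = 0.181) or DESeq2 (adjusted *p* = 0.0841). In all, *Msr1* was called under 2 of its 15 alternatives. Relative to *Msr1*, *Marco* signal was 2.25 and 1.45 in WT and 0.364 and 0.729 in the libraries labelled Rxra-KO, so the order of the class A receptors by signal reversed between the groups. That comparison is of read signal and not of levels per length. Per kilobase of annotated exon, the libraries labelled Rxra-KO had 108 and 207 for *Marco* and 142 and 136 for *Msr1*. By that measure the order reversed in replicate 1 only.

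The class B receptors differed from each other. *Cd36*, which takes up oxidised lipoproteins and long-chain fatty acids, had a signal of 379 and 496 in WT and 502 and 527 in the libraries labelled Rxra-KO. The highest WT library lay just under the lowest one labelled Rxra-KO, and *Cd36* was not called (log2 fold change 0.24, 95% interval -0.20 to 0.69, limma adjusted *p* = 0.826). Its log2 fold change was 0.05 without WT replicate 1. *Scarb1*, which encodes a receptor for high-density lipoprotein that exchanges cholesterol, was near the detection floor, with 19 and 13 reads in WT against 3 and 2 in those labelled Rxra-KO. All its values in WT were above those labelled Rxra-KO, and the pooled ratio of the latter to WT was 0.148, with an exact 95% interval of 0.045 to 0.383 for counting error only. The fitted log2 fold change was -2.23 with a limma adjusted *p* = 0.0536, so *Scarb1* was not called. It was called by edgeR on the recovered reads (log2 fold change -2.72, adjusted *p* = 0.0233) and with median-of-ratios scaling (adjusted *p* = 0.0494).

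The remaining receptors were not called. *Cd68*, a glycoprotein of late endosomes and lysosomes that is widely used as a macrophage marker, had a signal of 263 and 305 in WT and 355 and 307 in the libraries labelled Rxra-KO, where the closest libraries were nearly equal (log2 fold change 0.22, 95% interval -0.24 to 0.68, limma adjusted *p* = 0.869). *Cxcl16*, a membrane-bound chemokine that also binds oxidised lipoproteins, overlapped between the groups, at 50.7 and 58.0 against 47.4 and 57.1 (log2 fold change -0.06, 95% interval -0.73 to 0.61, adjusted *p* = 0.987). An exon of *Zmynd15* on the other strand overlaps *Cxcl16*, and the reads of the pair cannot be told apart where they overlap if counting did not use strand. Counts for *Zmynd15* were 3 and 1 reads in WT against 3 and 14. *Olr1*, the lectin-like receptor for oxidised lipoproteins, had 10 and 18 reads against 8 and 9, and its interval was wide (log2 fold change -0.65, 95% interval -1.78 to 0.48, adjusted *p* = 0.817), so a change of moderate size was not detectable at this depth.

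**Figure D2:**
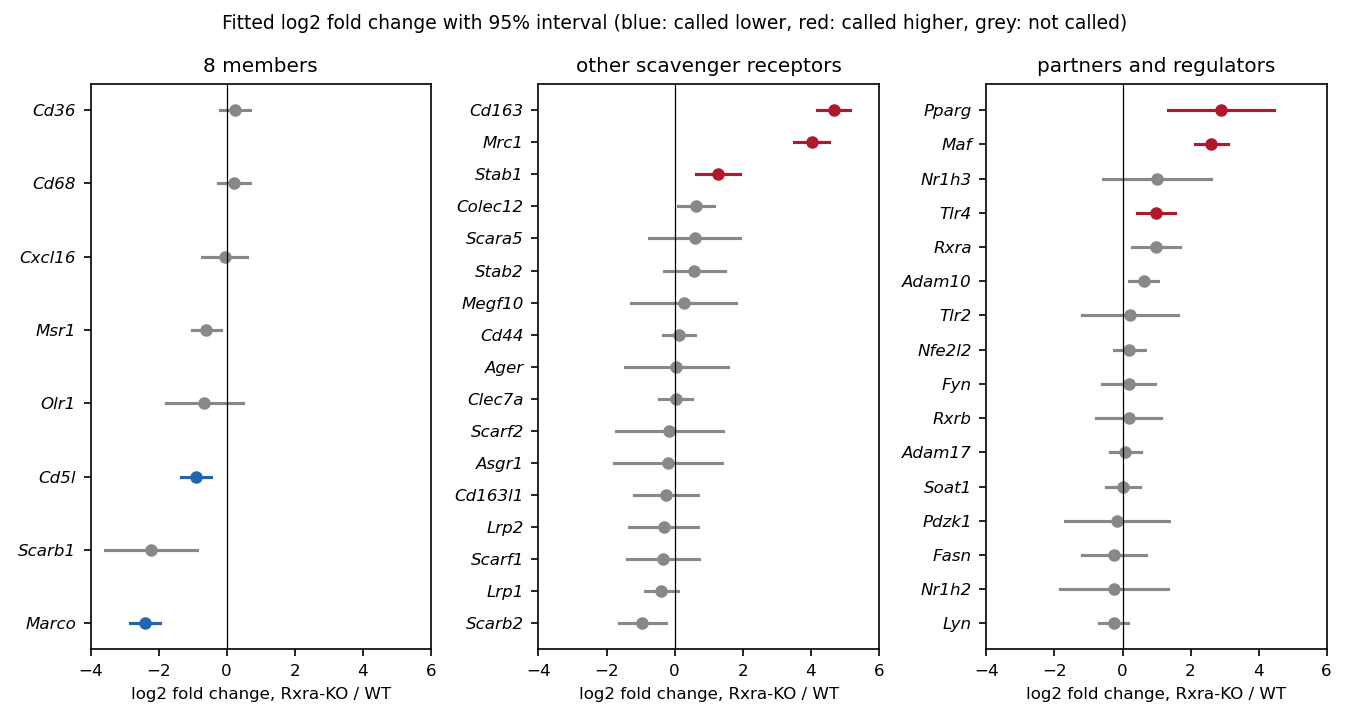
Log2 fold changes on the log2(value + 1) scale (horizontal axis, libraries labelled Rxra-KO over WT) with 95% intervals from the limma fit for the 8 genes, 17 other scavenger receptors and the partners and regulators reported here. Blue marks genes called lower (*Marco* and *Cd5l*), red genes called higher (*Cd163*, *Mrc1*, *Stab1*, *Maf*, *Pparg* and *Tlr4*) and grey genes not called.

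As a group, the 8 genes made up 0.575% and 0.536% of all reads in WT and 0.285% and 0.334% in the libraries labelled Rxra-KO. Their summed signal was 5688 and 5513 against 2707 and 3472. Without *Marco* and *Cd5l* the sum of the other 6 genes was 1496 and 1841 in WT and 1491 and 1450 in the libraries labelled Rxra-KO. The share of *Marco* among the reads of the 8 genes was 30.0% and 24.9% in WT and 7.64% and 11.5% in those labelled Rxra-KO. The share of *Cd5l* overlapped between the groups, at 43.8% and 41.7% against 37.3% and 46.8%. *Cd36* took 6.66% and 9.0% of these reads in WT and 18.6% and 15.2% in the libraries labelled Rxra-KO.

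**Figure D3:**
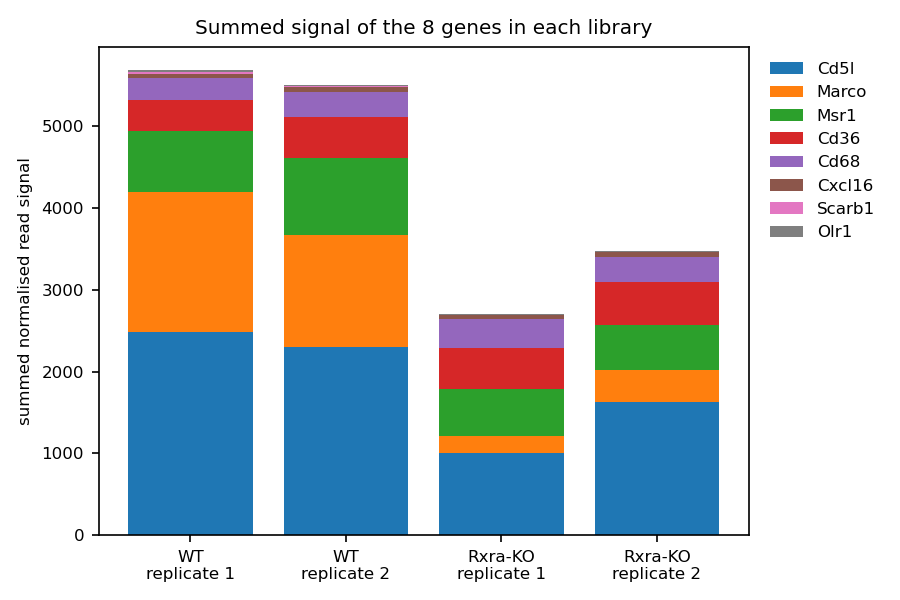
Summed normalised read signal (vertical axis, starting at 0) of the 8 genes, stacked by gene, in each of the 4 libraries. The sum lies at 5688 and 5513 in WT and at 2707 and 3472 in the libraries labelled Rxra-KO, and the *Marco* and *Cd5l* segments account for most of the gap.

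Levels of different genes were compared per kilobase of annotated exon (GENCODE vM21). In WT the signal per kilobase was 1175 ± 65.5 for *Cd5l* and 800 ± 122 for *Marco*, followed by 226 ± 24.0 for *Cd68*, 213 ± 33.3 for *Msr1* and 124 ± 23.4 for *Cd36* (SD, n = 2). *Cxcl16* at 20.1 ± 1.92, *Scarb1* at 8.76 ± 4.17 and *Olr1* at 5.03 ± 0.826 were far lower. The pair *Cd68* and *Msr1* and the pair *Scarb1* and *Olr1* differed by less than the spread between libraries. In the libraries labelled Rxra-KO *Cd5l* still came first, at 647 ± 213 per kilobase, and *Cd68* came next at 263 ± 26.5. *Marco*, at 157 ± 70.4, was then within its spread of *Cd36* at 146 ± 4.95 and of *Msr1* at 139 ± 3.82.

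To place the 8 genes among their relatives, 18 other scavenger receptors were read from the same fit, of which 17 were in the table. None of the 17 was lower at the threshold and 3 were higher, and the median of their log2 fold changes was 0.05. *Cd163*, the receptor for haptoglobin-haemoglobin complexes, had a signal of 46.2 and 37.4 in WT and 1561 and 756 in the libraries labelled Rxra-KO. Both of the latter were far above WT, though replicate 1 was well above replicate 2, and the log2 fold change was 4.67 (standard error 0.25, limma adjusted *p* = 2.55e-44). *Mrc1*, the mannose receptor and one of the SPM markers above, rose from 96.1 and 27.7 to 1011 and 739 (log2 fold change 4.04, limma adjusted *p* = 2.18e-34). *Stab1*, which encodes stabilin-1, went from 67.4 and 25.5 to 130 and 80.9 (log2 fold change 1.28, limma adjusted *p* = 0.00753), but was not called without WT replicate 2 (0.60, adjusted *p* = 0.680) or without Rxra-KO replicate 1 (0.95, adjusted *p* = 0.740). For *Scarb2*, the lysosomal relative of *Cd36*, the signal went from 71.4 ± 5.05 to 36.6 ± 0.451 and the gene was not called (log2 difference -0.94, limma adjusted *p* = 0.173). The same libraries thus held lower *Marco* and *Cd5l* beside higher *Cd163*, *Mrc1* and *Stab1*, all of them as labelled.

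The SRCR domain of CD5L and MARCO is shared with CD163 and with further proteins. *Cd163*, called higher above, was counted with the other scavenger receptors and is not among the 10 genes that follow. Of 10 other genes with this domain, including *Cd5* and *Cd6* of lymphocytes, limma called 0, with 0 at an unadjusted *p* under 0.05, and voom, edgeR and DESeq2 also called 0. Their median log2 fold change was -0.37, and 7 of the 10 had a mean under 10 reads, so small changes were not detectable. The most abundant of them, *Loxl3*, which encodes a lysyl oxidase relative, had a signal of 113 ± 3.0 in WT and 81.0 ± 11.2 in the libraries labelled Rxra-KO (log2 fold change -0.49, limma adjusted *p* = 0.613).

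Among 20 genes that regulate these receptors or work with them, 18 were in the table and 3 were called higher, and the median log2 fold change was 0.19. *Maf*, which encodes the transcription factor c-Maf, rose from 116 and 64.5 to 579 and 493 (log2 fold change 2.61, limma adjusted *p* = 1.69e-18). For *Pparg*, a partner of RXR that activates *Cd36*, there were 1 and 0 reads in WT against 24 and 6, a pooled ratio of 28.4 with an exact 95% counting interval of 4.72 to 1159 (limma adjusted *p* = 0.0164). That call was lost by voom on the recovered reads (adjusted *p* = 0.0659) and by limma on genes with a mean signal of at least 10 (adjusted *p* = 0.179). It was also lost without WT replicate 2 (log2 fold change 2.36) and without Rxra-KO replicate 1 (1.73), against 2.90 with all libraries. *Tlr4*, which can signal together with CD36, rose from 71.9 and 75.4 to 133 and 162 (log2 fold change 0.99, limma adjusted *p* = 0.0287), and leaving out any 1 of the 4 libraries raised its adjusted *p* to between 0.141 and 0.448. The most abundant gene of the list, the kinase gene *Lyn*, had a signal of 988 ± 193 and 822 ± 16.3 (limma adjusted *p* = 0.808). For *Nr1h3*, which encodes LXRα, only 1 read in each WT library stood against 2 and 6, a pooled ratio of 3.79 with an exact 95% counting interval of 0.756 to 36.6.

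The genes whose pattern over the 4 libraries was most like that of each abundant member were sought among 1742 others with a mean signal of at least 100, by the root mean square difference of centred log2 values. For *Marco* they were *Naip1*, an inflammasome sensor gene that is also one of the LPM markers, at 0.356 and *Fabp5*, a fatty acid-binding protein gene, at 0.388. Both were called lower, with log2 fold changes of -1.97 and -1.92, and neither followed *Marco* closely, whose own change was larger. For *Cd5l* they were *Crot*, which encodes the peroxisomal carnitine octanoyltransferase, at 0.0905 and *Bbip1*, a cilium-related gene, at 0.106. *Crot* was not called (limma adjusted *p* = 0.250) and *Bbip1* was, narrowly (adjusted *p* = 0.0471), and not when any of WT replicate 1, WT replicate 2 or Rxra-KO replicate 1 was left out (adjusted *p* = 0.144, 0.385 and 0.767). The nearest genes to *Msr1* were the ribosomal protein genes *Rpl28* and *Mrps24*, at 0.055 and 0.0569. *Cd36* was nearest to *Acp1* and *Mcl1*, at 0.0164 and 0.0196, and *Cd68* to *Alox5ap* and *Cmip*, at 0.0295 and 0.0302, and none of these was called.

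Several of the 8 genes are also expressed outside macrophages, *Scarb1* and *Olr1* in endothelium and *Cd36* in endothelium, adipocytes and platelets. The 4 endothelial markers had a summed signal of 9.76 to 19.7 in WT and 9.93 to 22.6 in the libraries labelled Rxra-KO, and no marker exceeded 8 reads in a library. The 3 adipocyte markers in the table summed to 1.08 to 7.57 against 6.02 to 6.95. The 4 platelet markers summed to 94.4 to 107 against 113 to 118, with *Pf4* the highest at up to 103 reads. None of these 11 genes was called. Lymphocyte (B and T cell), mast cell, mesothelial, neutrophil and eosinophil markers summed per type to at most 84.6 in any library, and *Cd2* was the only one of them called. Only 2 of 5 neutrophil and 1 of 3 eosinophil markers were in the table, so those sums say little about these cells. Dendritic cell markers summed to 34.7 to 39.4 in WT and 88.8 to 108 in the libraries labelled Rxra-KO, with *Cd209a* called higher. *Cd209a* alone reached 80 reads in a library, so this sum is weighted towards that gene, and no other dendritic cell marker was called.

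**Figure D4:**
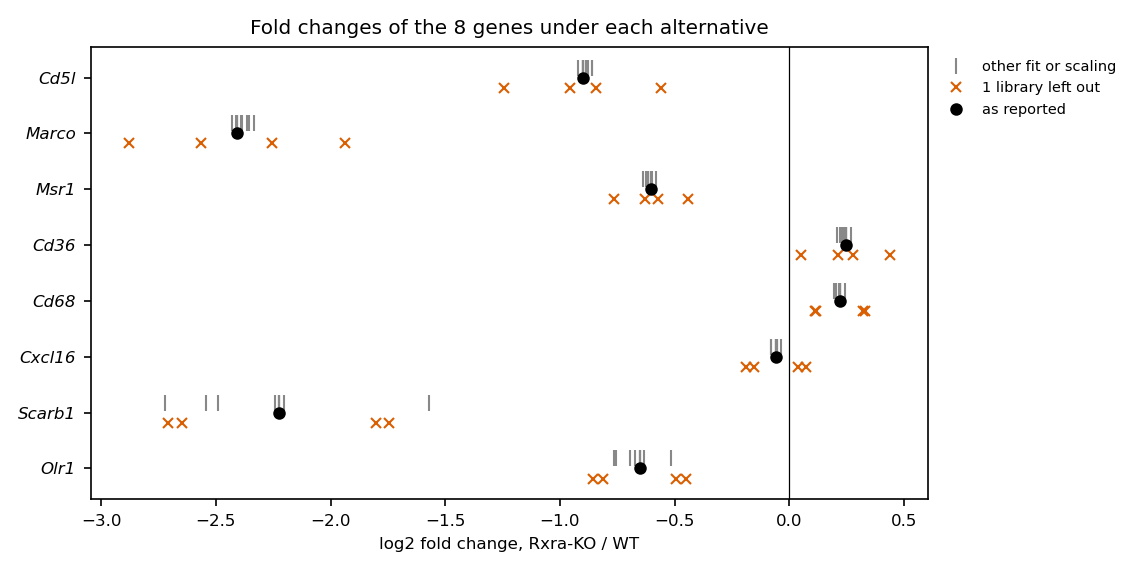
Log2 fold change of each of the 8 genes (horizontal axis, libraries labelled Rxra-KO over WT) as reported (black circle), with 1 library left out (orange crosses) and under the other fits, scalings and filters (grey ticks). *Marco* stays between -2.88 and -1.94, whereas *Cxcl16* crosses 0, from -0.19 to 0.0725.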

How the data were processed

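RNA of sorted LPMs, stated to be 99% pure, was sequenced on a NextSeq-500 after SMART-Seq v4 amplification, which carries no molecular identifiers. Per the methods of the study, the authors quantified transcripts with Kallisto (version 0.43.0), summed them to genes with tximport, and removed transcripts and genes of low abundance before testing. The methods and the processing notes of the submitters name GRCh38, a human reference, for these mouse libraries, and this was not resolved. The deposited signal equals (reads + 0.5) over a TMM-scaled library size, as in voom, to within 1.43e-09 on the log2 scale, and 100% of values gave a whole read within a tolerance of 0.01. The study states that RNA-seq samples that did not cluster with their group were excluded.

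The signal was fitted as log2(value + 1), which understates the change of low genes, with limma (version 3.58.1, R 4.3.3) and a mean-variance trend over the 2 WT and 2 Rxra-KO libraries, without covariates. Genes had to reach 1 in 2 or more libraries, which all did. Two-sided *p* values were adjusted by Benjamini-Hochberg across 18364 genes. Intervals of fold changes are unadjusted, at 95%. Exact Poisson and binomial intervals cover counting error only. Alternatives included voom, edgeR (version 4.0.16) and DESeq2 (version 1.42.0) on the recovered reads, and the steps were tested on simulated data. The members and lists were chosen with earlier results of these data known. The text names the 8 members, called genes and the most abundant gene of each list, *Rxra*, *Lyz2* and the 2 genes most like each member with a mean signal of at least 100. Other genes (*Scarb2*, *Nr1h3*, *Zmynd15* and markers) were named after their values were seen. *Adgre1* and *Ssc4d* stood in the table under older symbols. *Scara3*, *Tlr6* and *Cxcr6* of the lists were not analysed here, and 2 genes of the list of partners and regulators enter its counts but are not reported here. The median gene had 9 reads in a library.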

Additional observations from a re-analysis of the deposited data

How the results depend on the processing

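The number of genes called over the whole table, 421, was 0 by limma without a mean-variance trend (1579 at an unadjusted *p* under 0.05), 246 by DESeq2, and 167 to 381 when each library was left out, with the fewest without Rxra-KO replicate 1 and 240 without WT replicate 2. Of these calls, DESeq2 shared 239 and edgeR 405 of its 446. Without the trend, 0 of the 8 members (2 at an unadjusted *p* under 0.05), 0 of the other scavenger receptors (2) and 0 of the partners and regulators (3) were called. The cause was not tested. Leaving out a library gave 1 to 2 called members, 2 to 4 other scavenger receptors (*Colec12* in addition without Rxra-KO replicate 2) and 1 to 3 partners and regulators, where the full set gave 2, 3 and 4, and *Marco* was called each time. A library left alone in its group was taken to vary like the other group. DESeq2 and an adjusted *p* under 0.01 each left 2 partners and regulators, *Maf* among them. *Cxcl16* changed sign without WT replicate 2 (0.0365) and without Rxra-KO replicate 1 (0.0725), within a range of -0.19 to 0.0725 over the libraries left out. No other member changed sign under its alternatives. Every gene passed the filter, so its removal gave no further information, and *Scarb1* and *Olr1* stayed limited by depth. Of the 10 nearest genes, 9 were the same with a pseudocount of 5.

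Replicate numbers are shared between the groups, but no source says that they mark a litter, batch or day. Over 1743 genes the within-group differences correlated at 0.176 between the groups. With a replicate block, 540 genes and 4 members were called, *Msr1* (adjusted *p* = 0.0238) and *Scarb1* (adjusted *p* = 0.0472) in addition to *Marco* and *Cd5l*.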
